A study of Homo sapiens with 4 samples.

Results

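The metallothioneins MT2A, MT1X, MT1E, MT1F, MT1G and MT1M were examined together with MTF1, the transcription factor that senses zinc, and SLC30A1, the exporter that removes zinc from the cell. These 8 genes were taken by symbol from the 58735 genes of an RNA-seq table, and each symbol matched 1 row. The table covers 4 libraries, 1 for each of 2 growth forms, adherent and spheroid, in HCT116 and in LOVO, with a wild-type genotype in every label. HCT116 and LOVO are human colorectal cancer lines. The adherent cells grew in RPMI medium with serum and without drug. The spheroids, from which the study enriched stem-like cells (cCSCs), formed in low-attachment dishes in serum-free medium with B27 and N2 supplements, bFGF and EGF, in the presence of oxaliplatin, a platinum drug that binds sulphur ligands. The labels give a treatment of 1 mg/ml without naming the agent, and the study's text gives oxaliplatin at 1 μg/ml. Growth form, medium and drug therefore changed together, and their parts cannot be told apart. Each condition had 1 library, so no difference could be checked against replicates or tested, and the intervals below cover counting error only.

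Metallothioneins are small proteins rich in cysteine that bind zinc, copper and other soft metals, and buffer free zinc. When free zinc increases, MTF1 binds metal response elements in the promoters of metallothionein genes and of SLC30A1 and activates them, so that zinc is both bound and exported. Metallothionein genes also respond to glucocorticoids and to oxidative stress, and metallothioneins can bind platinum drugs.

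The levels are FPKM (fragments scaled to gene length and to a size set for each library) as the authors deposited them. Each value was a whole number of reads, of which 15483569 to 20429147 fell on genes per library. Before the results, the labels were compared with cell type markers. In the HCT116 libraries 8 and 9 of 10 colon epithelial markers were above 3 reads, with summed levels of 1753 and 1281 FPKM in adherent cells and spheroids. In the libraries labelled LOVO 6 of 10 were, and the summed levels were 327 and 187 FPKM. CDX2, an intestinal transcription factor, had 0 reads in both LOVO libraries against 323 and 216 in HCT116. The adhesion protein CDH1 had 13 reads and 1 read against 3920 and 3227, and EPCAM, an epithelial surface protein, had 0.930 and 1.4995 FPKM against 85.6 and 79.3. KRT19, an epithelial keratin, was at 14.9 and 4.85 FPKM against 808 and 543. The keratins KRT8 and KRT18 remained high in the LOVO libraries, with 189 and 81.6 FPKM for KRT8 and 122 and 98.8 FPKM for KRT18, against 571 and 418 and against 253 and 206 in HCT116. CDX1, VIL1, LGALS4 and CDH17 were at most 25 reads in every library and separated the lines little. Fibroblast markers summed to 54.0 and 72.8 FPKM in the LOVO libraries, mostly from LUM and DCN, against 5.60 and 16.1 in HCT116. COL3A1 and PDGFRB were also higher in both LOVO libraries. COL1A1 did not separate the lines, with 9.89 and 6.10 FPKM in LOVO against 5.51 and 15.5 in HCT116. COL1A2 had at most 1 read in every library. CDX2, CDH1, EPCAM and KRT19, together with LUM, DCN, COL3A1 and PDGFRB, thus went against the label of a colon epithelial line in the LOVO libraries. KRT8 and KRT18, high though lower than in HCT116, and COL1A1 and COL1A2 did not. LOVO below means the libraries so labelled. The part of these differences in the results was not tested.

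The 6 metallothionein members lie in 1 cluster on chromosome 16 (GRCh38). It runs from the start of MT2A at 56608199 to the end of MT1X at 56684196. This span of 75998 bases holds 13 of the metallothionein loci listed for this report, pseudogenes included. The metallothionein pseudogene MT1CP on the same chromosome, with at most 2 reads in a library, was not on the list. The coding sequences of the 6 members are all 186 bases long and closely alike. All but that of MT1M are shown, because reads from them could be divided between genes and because MT1G, the nearest to MT2A in sequence, had no reads. Capitals mark the bases that differ from MT2A (GENCODE 29, GRCh38, 5′ to 3′, stop codon included).
MT2A: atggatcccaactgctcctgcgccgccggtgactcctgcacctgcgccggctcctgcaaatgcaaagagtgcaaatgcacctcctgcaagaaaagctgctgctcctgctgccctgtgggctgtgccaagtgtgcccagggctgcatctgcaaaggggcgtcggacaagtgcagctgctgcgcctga
MT1X: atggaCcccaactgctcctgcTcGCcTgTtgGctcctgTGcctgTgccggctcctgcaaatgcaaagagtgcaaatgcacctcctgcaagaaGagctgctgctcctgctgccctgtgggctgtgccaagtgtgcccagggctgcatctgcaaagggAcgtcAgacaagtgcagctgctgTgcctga
MT1E: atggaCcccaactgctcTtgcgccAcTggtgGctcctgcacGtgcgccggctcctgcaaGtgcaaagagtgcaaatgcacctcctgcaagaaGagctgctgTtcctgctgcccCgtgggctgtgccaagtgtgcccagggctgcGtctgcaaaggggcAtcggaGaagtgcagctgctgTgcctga
MT1F: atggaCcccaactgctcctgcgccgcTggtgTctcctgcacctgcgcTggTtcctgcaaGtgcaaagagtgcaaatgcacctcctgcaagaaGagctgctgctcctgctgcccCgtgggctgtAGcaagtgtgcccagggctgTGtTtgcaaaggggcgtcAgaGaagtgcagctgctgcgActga
MT1G: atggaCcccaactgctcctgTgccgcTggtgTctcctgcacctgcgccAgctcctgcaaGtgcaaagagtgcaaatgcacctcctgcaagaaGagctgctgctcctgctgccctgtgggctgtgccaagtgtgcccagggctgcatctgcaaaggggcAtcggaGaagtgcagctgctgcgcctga

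Over these 186 bases MT2A was identical to MT1G at 177 positions, to MT1X and MT1E at 172 each and to MT1F at 170. MT1M matched MT2A at 167 positions. The longest identical run was 65 bases for MT2A and MT1G and 96 bases for MT1X and MT1G. Of all stretches of 50 bases in the annotated transcripts, 3.02% of those of MT2A, 7.10% of MT1E and 1.22% of MT1F also occurred in another gene. The share was 16.5% for MT1G and 9.865% for MT1M. For MT1X the share was 18.3%, mostly from AC026461.1, an overlapping non-coding gene on the same strand that covers 321 of its 1773 exonic bases. For stretches of 100 bases the share was 0% for MT2A, MT1E, MT1F, MT1G and MT1M and 11.3% for MT1X. How the authors treated reads matching more than 1 gene, and the read length, are not given in the sources used here. The levels of MT1X in particular, and the counts of 0 for MT1G and MT1M given below, are therefore uncertain.

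Promoters are shown for the members whose mRNA differed most between libraries and that the RefSeq promoter table holds. Each runs from 250 bases before the RefSeq start to 50 after it (GRCh38.p14). Capitals mark the core of the metal response element, searched as TGCACNC and TGCGCNC on both strands. The MT2A window is chr16:56608334-56608633 on the plus strand, the MT1X window chr16:56682220-56682519 on the plus strand and the SLC30A1 window chr1:211579112-211579411 on the minus strand.
MT2A: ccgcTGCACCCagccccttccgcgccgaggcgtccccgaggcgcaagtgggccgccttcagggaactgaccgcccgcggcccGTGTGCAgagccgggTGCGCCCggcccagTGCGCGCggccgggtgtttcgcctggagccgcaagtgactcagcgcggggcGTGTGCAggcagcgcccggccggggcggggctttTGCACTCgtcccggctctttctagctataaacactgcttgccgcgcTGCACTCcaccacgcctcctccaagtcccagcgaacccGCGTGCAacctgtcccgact
MT1X: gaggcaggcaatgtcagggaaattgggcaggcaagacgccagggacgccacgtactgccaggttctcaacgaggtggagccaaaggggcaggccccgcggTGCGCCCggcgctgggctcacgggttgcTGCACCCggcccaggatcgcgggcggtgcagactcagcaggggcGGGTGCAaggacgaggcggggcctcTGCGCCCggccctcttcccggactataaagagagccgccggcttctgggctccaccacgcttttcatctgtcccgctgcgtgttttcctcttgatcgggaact
SLC30A1: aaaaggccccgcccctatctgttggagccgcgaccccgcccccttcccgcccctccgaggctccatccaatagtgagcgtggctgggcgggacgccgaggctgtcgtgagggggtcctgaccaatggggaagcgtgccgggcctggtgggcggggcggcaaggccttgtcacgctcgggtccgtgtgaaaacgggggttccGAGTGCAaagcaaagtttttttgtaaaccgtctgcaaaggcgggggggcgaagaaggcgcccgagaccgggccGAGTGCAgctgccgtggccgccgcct

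The MT2A window held 8 cores, 5 of them on the strand of the gene, between positions -246 and 30 from the RefSeq start. The MT1X window held 4, between -150 and -53, and the SLC30A1 window held 2, at -49 and 24, both on the strand opposite to the gene. The MTF1 window held 0. None of these cores overlapped another. Among 35116 promoters of this length, 29.6% held at least 1 core, 8.60% at least 2, 0.601% at least 4 and 0.0199% at least 8. These are matches of letters and not measured binding sites.

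MT2A (ENSG00000125148; plus strand, 56608199 to 56609497) is the main metallothionein isoform of most human tissues, and it carried most of the metallothionein mRNA in every library here. Its level was 507 FPKM in adherent and 150 in spheroid HCT116 cells, and 85.0 in adherent and 325 in spheroid LOVO cells, from 13435, 3284, 1979 and 8499 reads. The highest level was thus in adherent HCT116 cells and the lowest in adherent LOVO cells, with both spheroid libraries between them. MT2A was 3.37-fold lower in HCT116 spheroids than in adherent cells and 3.83-fold higher in LOVO spheroids. The log2 ratios were -1.75 (95% counting interval -1.81 to -1.70) and 1.94 (1.87 to 2.01). Comparisons across genes used the 14429 whose FPKM averaged 1 or more over the libraries. By level, MT2A held rank 56 of these in adherent and rank 143 in spheroid HCT116 cells, and rank 511 in adherent and rank 65 in spheroid LOVO cells. These are mixtures of whole cultures, in which fewer cells of a type and less RNA per cell cannot be told apart.

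**Figure D1:**
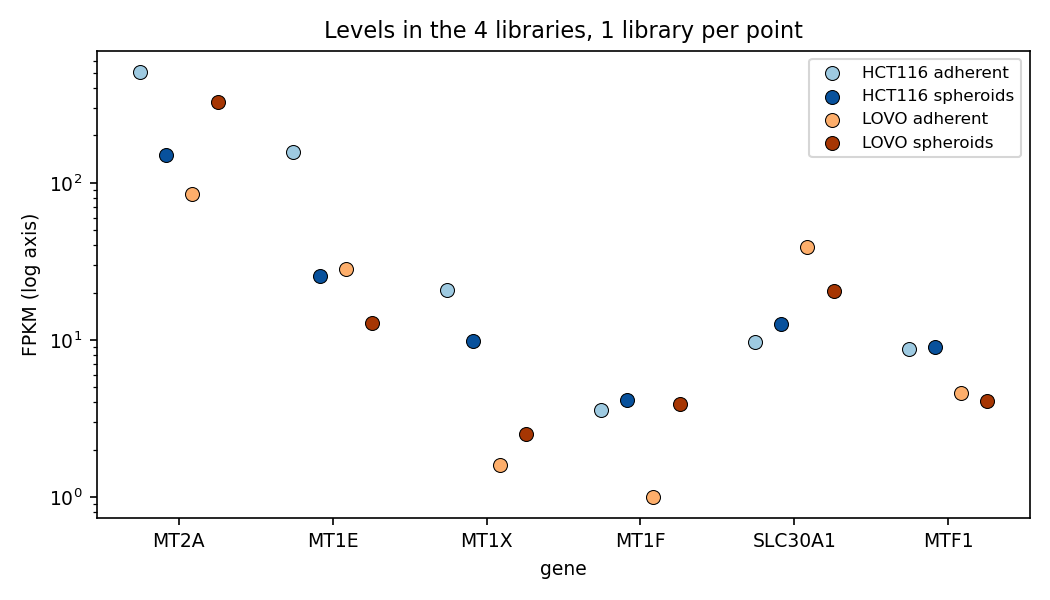
FPKM of the 6 members with reads (x axis: genes, y axis: FPKM on a log axis), 1 point per library and no replicates. MT2A ran from 85.0 to 507 FPKM, with the order of adherent cells and spheroids opposite in HCT116 and LOVO, and SLC30A1 stood highest where MT2A stood lowest, in adherent LOVO cells.

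MT1E (ENSG00000169715; plus strand, 56625475 to 56627112), which encodes an isoform of the MT1 group, had the next highest level of the family in every library. It stood at 157 FPKM in adherent and 25.4 in spheroid HCT116 cells, and 28.3 in adherent and 12.8 in spheroid LOVO cells, from 3356, 449, 533 and 270 reads. The spheroids were lower in both lines. MT1E was 6.16-fold lower in HCT116 spheroids, with a log2 ratio of -2.62 (counting interval -2.77 to -2.48), and 2.21-fold lower in LOVO spheroids, with a log2 ratio of -1.15 (-1.36 to -0.93). On the log2(FPKM + 1) scale its fold change in HCT116 was -2.58, and 18 of the 14429 genes were lower.

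MT1E and MT2A thus differed in direction within the LOVO libraries. Since both are read in the same library, their ratio does not depend on scaling between libraries. The ratio of MT2A to MT1E in FPKM was 3.24 in adherent (95% exact counting interval 3.12 to 3.37) and 5.92 in spheroid (5.37 to 6.55) HCT116 cells, and 3.01 in adherent (2.73 to 3.32) and 25.5 in spheroid LOVO cells (22.6 to 28.9). Both adherent cultures were near the same ratio, and both spheroid cultures were above it. This ratio was chosen after the values had been seen.

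MT1X (ENSG00000187193; plus strand, 56682424 to 56684196), another MT1 isoform, was at 20.9 FPKM in adherent and 9.87 in spheroid HCT116 cells, and 1.604 in adherent and 2.52 in spheroid LOVO cells, from 755, 294, 51 and 90 reads. Both HCT116 libraries stood above both LOVO libraries. MT1X was 2.12-fold lower in HCT116 spheroids, with a log2 ratio of -1.08 (counting interval -1.28 to -0.89), and 1.57-fold higher in LOVO spheroids, with a log2 ratio of 0.65 (0.14 to 1.18). It therefore went in the directions of MT2A, with smaller ratios.

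MT1F (ENSG00000198417; plus strand, 56657694 to 56660698) was low, with 3.56, 4.16, 1.00 and 3.92 FPKM in adherent and spheroid HCT116 and then in adherent and spheroid LOVO cells, from 137, 132, 34 and 149 reads. Only the adherent LOVO library stood apart from the others. In HCT116 its log2 ratio, spheroid over adherent, was 0.23 with a counting interval from -0.13 to 0.58, and these read numbers could not show a difference. In LOVO spheroids MT1F was 3.91-fold higher, with a log2 ratio of 1.97 (1.42 to 2.55), a change similar in size to that of MT2A but from few reads.

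MT1G (ENSG00000125144; minus strand, 56666731 to 56668065) and MT1M (ENSG00000205364; plus strand, 56632233 to 56633986) had 0 reads in each of the 4 libraries. A count of 0 allows up to 3 reads, or 0.196 to 0.238 FPKM for MT1G and 0.156 to 0.190 FPKM for MT1M, so the most that either could reach was below the lowest level of MT1F. This bound covers counting only and not the handling of reads that match more than 1 gene. No fold change can be given for MT1G or MT1M. Of the 8 genes, 6 averaged 1 FPKM or more and entered the comparisons across genes.

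The same held for other metallothionein loci, in the cluster and beyond it. Of those listed, MT3 and MT4 lie outside the span given above, and MT1HL1 and MT1XP1 lie on chromosome 1. Of 17 metallothionein loci listed, 8 had 0 reads in all libraries, namely MT1A, MT1B, MT1G, MT1H, MT1HL1, MT1IP, MT1M and MT3, and 3 never exceeded 3 reads, namely MT1JP, MT1L and MT4. The loci above that floor were the 4 genes described above and the pseudogenes MT1DP and MT1XP1. MT1DP had 17, 9, 0 and 4 reads in adherent and spheroid HCT116 and then in adherent and spheroid LOVO cells, and MT1XP1 had 7, 11, 1 and 5. In adherent HCT116 cells the level of MT1DP, 4.37 FPKM, was thereby above that of MT1F. Transcripts of MT1X share stretches of 50 bases with MT1XP1, so its reads are uncertain. Genes with reads and genes without lay side by side, with MT1E, MT1F and MT1X separated by loci at 0.

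Summed over the 17 listed loci, the metallothionein level was 695 FPKM in adherent and 197 in spheroid HCT116 cells, and 116 in adherent and 347 in spheroid LOVO cells. It rested on 17709, 4181, 2598 and 9020 reads. The sum followed MT2A, and its difference in log2(FPKM + 1) was -1.82 for HCT116 and 1.57 for LOVO spheroids. The members made up at least 96.6% of the sum in every library.

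Within the summed level of the members, MT2A made up 73.7% in adherent and 79.2% in spheroid HCT116 cells, and 73.4% in adherent and 94.4% in spheroid LOVO cells. MT1E made up 22.7%, 13.4%, 24.4% and 3.70% in the same order. Adherent cells of both lines were therefore close in the shares of MT2A and MT1E while their summed levels were 688 and 116 FPKM. MT1E took a smaller share in the spheroids of both lines. MT1X made up 3.03%, 5.20%, 1.39% and 0.733%, and MT1F at most 2.19%. The table divides reads by all annotated exonic bases, 1299 for MT2A and 1773 for MT1X, whereas their principal coding transcripts have 786 and 450 bases. Per length of 1 coding transcript, an alternative added after the values had been seen, the share of MT2A was 72.0%, 73.8%, 73.2% and 93.1%. That of MT1E became 20.1%, 11.3%, 22.0% and 3.30%, and that of MT1X 7.07%, 11.5%, 3.30% and 1.72%. On that scale MT1X and MT1E changed places in HCT116 spheroids.

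**Figure D2:**
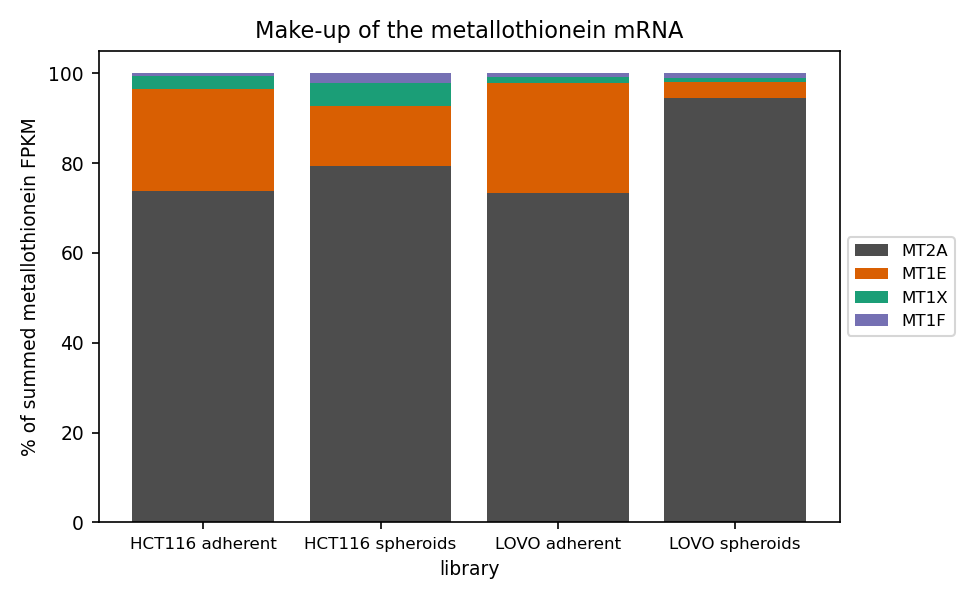
Share of each metallothionein in the summed FPKM of the members (x axis: library, y axis: percent), 1 library per bar. MT2A made up 73.4% to 94.4%, and the share of MT1E was smaller in the spheroids than in the adherent cells of each line, 13.4% against 22.7% and 3.70% against 24.4%.

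MTF1 (ENSG00000188786; chromosome 1, minus strand, 37809567 to 37859620), the factor that activates these genes in response to zinc, differed little between growth forms. Its level was 8.73 FPKM in adherent and 8.98 in spheroid HCT116 cells, and 4.57 in adherent and 4.06 in spheroid LOVO cells, from 1428, 1210, 658 and 656 reads. The libraries of a line were close to each other and the LOVO libraries lay lower. Between growth forms the log2 ratio, spheroid over adherent, was 0.04 in HCT116 (counting interval -0.07 to 0.15) and -0.17 in LOVO (-0.33 to -0.01). Rescaling to TPM turned the LOVO value to 0.03. These are mRNA levels, and the activity of MTF1, which zinc sets at the protein, was not measured.

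SLC30A1 (ENSG00000170385; chromosome 1, minus strand, 211571568 to 211578742), which encodes the zinc exporter ZnT1 of the plasma membrane and is a known target of MTF1, was at 9.69 FPKM in adherent and 12.7 in spheroid HCT116 cells, and 38.7 in adherent and 20.5 in spheroid LOVO cells, from 1081, 1165, 3800 and 2256 reads. Its highest library was adherent LOVO cells, the one in which MT2A was lowest, and its lowest was adherent HCT116 cells, in which MT2A was highest. In spheroids SLC30A1 was 1.31-fold higher in HCT116, with a log2 ratio of 0.39 (counting interval 0.27 to 0.51), and 1.89-fold lower in LOVO, with a log2 ratio of -0.92 (-0.99 to -0.84). Both directions were opposite to those of MT2A. The ratio of MT2A to SLC30A1 in FPKM was 52.4 in adherent (49.2 to 55.8) and 11.9 in spheroid (11.1 to 12.7) HCT116 cells, and 2.19 in adherent (2.08 to 2.32) and 15.9 in spheroid LOVO cells (15.2 to 16.6).

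**Figure D3:**
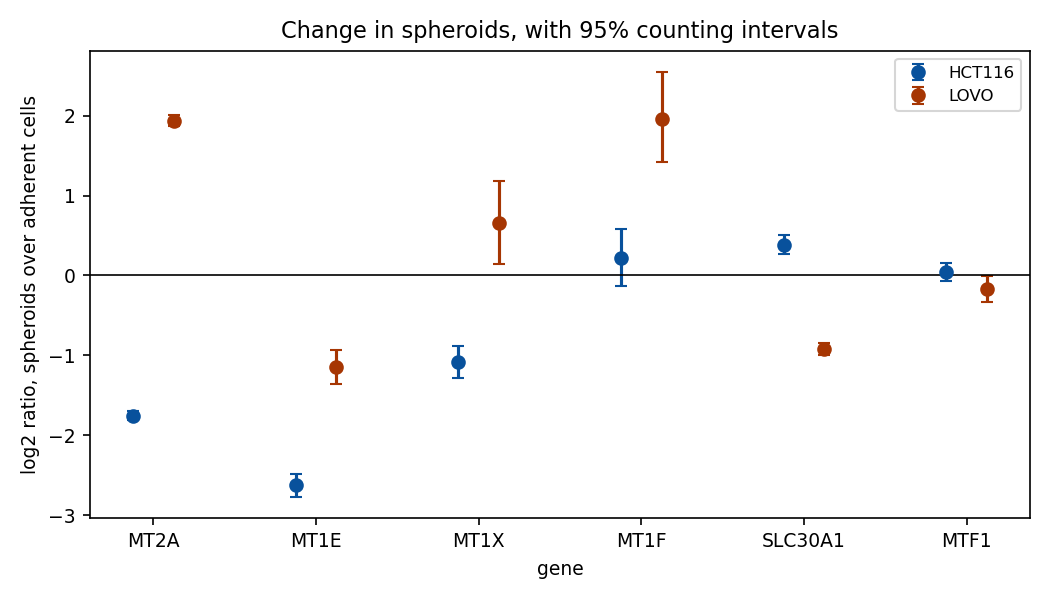
log2 ratio, spheroid over adherent cells, for the 6 members with reads (x axis: genes, bars: 95% exact counting intervals, which do not cover variation between cultures). MT2A was at -1.75 in HCT116 and 1.94 in LOVO, MT1E was below 0 in both lines, and SLC30A1 was at 0.39 and -0.92, opposite to MT2A.

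The study called genes by an edgeR log fold change above 2 together with a P value limit, which was not applied here. Fold changes past 2 on the log2(FPKM + 1) scale, a different measure, were then counted. In HCT116 spheroids 1 member, MT1E, was lower past 2, against 0.506% of the 14429 genes, and 0 members were higher, against 0.201%. In LOVO spheroids 0 members were higher, against 1.81% of genes, and 0 were lower, against 0.943%. MT2A was just short of 2 there, at 1.92. Past 1, MT2A, MT1X and MT1E were lower in HCT116 spheroids (background 3.33%) and 0 members were higher (2.19%). In LOVO spheroids MT2A and MT1F were higher past 1 (8.57%) and MT1E was lower (7.85%). Near that size, MT1X stood at -1.01 in HCT116 and MT1E at -1.09 in LOVO. The metallothioneins are paralogs in 1 cluster and are not independent of each other.

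The difference between the lines in the change with growth form was described by the log2 ratio in LOVO minus that in HCT116. It was 3.69 for MT2A (Poisson counting interval 3.60 to 3.78), 1.74 for MT1X (1.20 to 2.27), 1.48 for MT1E (1.22 to 1.73) and 1.74 for MT1F (1.10 to 2.38). For MT1E, which was lower in the spheroids of both lines, the value above 0 means a smaller decrease in LOVO. The share of all genes compared with a value above 0 is not given here. The difference was -0.21 for MTF1 (-0.40 to -0.02) and -1.31 for SLC30A1 (-1.45 to -1.16). Variation between cultures was not measured, so these differences were not tested.

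The lines were also compared at the same growth form, using the same 4 libraries. In adherent cells all 4 measured metallothioneins were lower in LOVO than in HCT116. MT1X was 13.0-fold lower (log2 ratio -3.70, counting interval -4.14 to -3.29), MT2A 5.97-fold lower (-2.58, -2.65 to -2.51), MT1E 5.54-fold lower (-2.47, -2.60 to -2.34) and MT1F 3.55-fold lower (-1.83, -2.41 to -1.28). MTF1 was 1.91-fold lower and SLC30A1 3.995-fold higher, with a log2 ratio of 1.998 (1.90 to 2.10). On the log2(FPKM + 1) scale 3 members, MT2A, MT1X and MT1E, were lower past 2 against 5.59% of genes, and 0 were higher against 5.26%. Past 1, MT1F joined them (16.4%). SLC30A1 alone of the 6 was higher past 1, a share near the background of 17.4%.

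In spheroids the order of the lines differed between the metallothioneins. MT2A was 2.16-fold higher in LOVO than in HCT116 (log2 ratio 1.11, counting interval 1.05 to 1.17), while MT1X was 3.91-fold lower (-1.97, -2.33 to -1.62) and MT1E 1.99-fold lower (-0.99, -1.22 to -0.77). For MT1F the interval ran from -0.43 to 0.26, and a difference was not detectable. MTF1 was 2.21-fold lower and SLC30A1 1.62-fold higher in LOVO spheroids. Past 2 on the log2(FPKM + 1) scale, 0 members were higher (background 5.68%) and 0 lower (4.71%). Past 1, MT2A was higher (17.7%) and MT1X lower (15.0%), 1 of the 6 in each direction, which is near the background. Several of the epithelial and fibroblast markers given above differed between the lines as well, and their part in these differences was not tested.

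The other zinc transporters place these genes in context. Cells export zinc from the cytosol by SLC30A (ZnT) proteins and bring it in by SLC39A (ZIP) proteins. Of 24 transporters, 17 averaged 1 FPKM or more, SLC30A1 included. In the spheroids 5 of them were higher in both lines, 3 were lower in both and 9 went in opposite directions. The same shares over all genes compared are not given here, so these counts are a description only. The 7 exporters had a median log2 fold change of -0.02 for HCT116 and 0.17 for LOVO, the 10 importers one of 0.10 and 0.16, against -0.03 and -0.06 over all genes compared. The members went both ways, from -0.89 to 1.03 for the exporters and from -1.21 to 2.90 for the importers in LOVO, so these medians do not describe the single genes.

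A few transporters were past a log2 fold change of 1. SLC39A8, which carries zinc and manganese and can carry cadmium, was at 3.76 FPKM in adherent and 6.26 in spheroid HCT116 cells, and 12.6 in adherent and 100 in spheroid LOVO cells. LOVO spheroids stood far above the other libraries, 7.97-fold above their adherent cells (log2 ratio 2.99, counting interval 2.92 to 3.07), while HCT116 spheroids were 1.66-fold higher. SLC39A14, a zinc and iron importer, was lower in the spheroids of both lines, at 48.3 and 22.2 FPKM in HCT116 and 44.0 and 18.5 in LOVO, a 2.18-fold and a 2.38-fold difference. SLC39A13, a transporter of intracellular vesicles, was 3.15-fold higher in LOVO spheroids and 1.31-fold higher in HCT116 spheroids. SLC30A3, which loads zinc into vesicles, was 6.02-fold higher in LOVO spheroids, from 28 and 189 reads, with a log2 ratio of -0.02 in HCT116.

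SLC39A10, a plasma membrane importer whose gene is repressed by zinc through MTF1, was named after its values had been seen. It was at 10.6 FPKM in adherent and 19.0 in spheroid HCT116 cells, and 16.7 in adherent and 10.0 in spheroid LOVO cells. It was 1.80-fold higher in HCT116 spheroids (log2 ratio 0.85, counting interval 0.75 to 0.94) and 1.67-fold lower in LOVO spheroids (-0.74, -0.84 to -0.64). Its directions were those of SLC30A1 and opposite to those of MT2A. Among the other transporters with opposite directions in the lines, SLC30A6 and SLC39A4 also went as SLC30A1 did. SLC30A3, SLC30A5, SLC30A7, SLC39A7 and SLC39A11 went the other way, in the directions of MT2A.

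**Figure D4:**
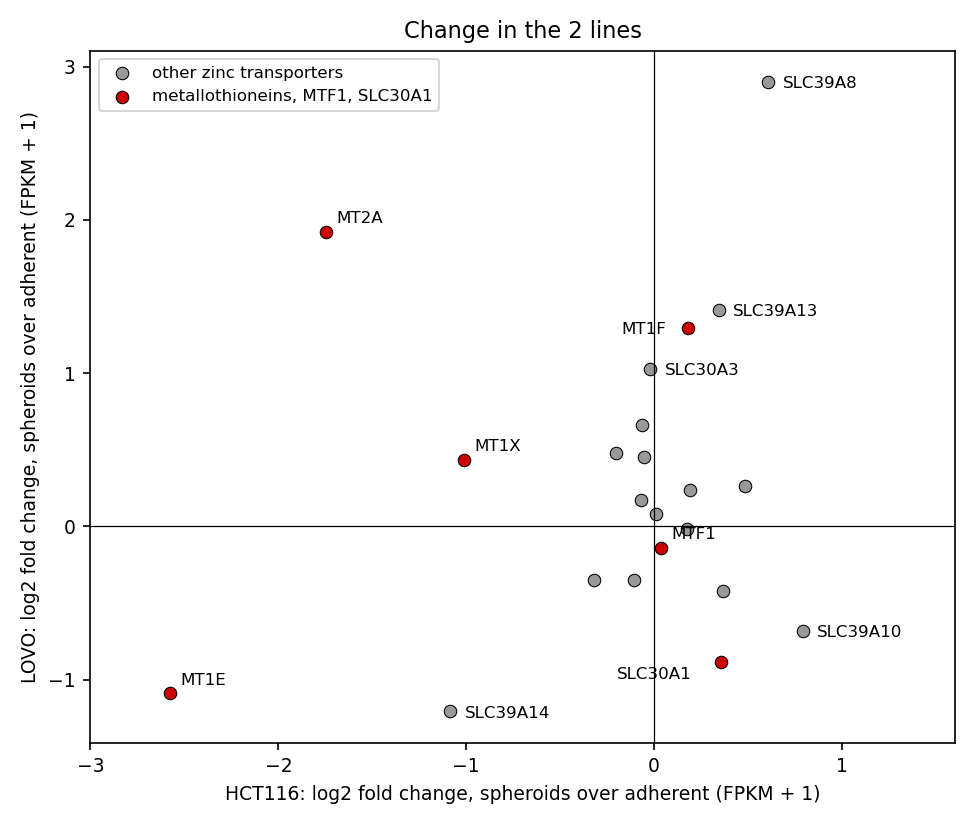
log2 fold change of spheroids over adherent cells on the log2(FPKM + 1) scale in HCT116 (x axis) and LOVO (y axis) for the 6 members with reads and the other zinc transporters that averaged 1 FPKM or more, 1 point per gene. MT2A lies at -1.75 and 1.92, across the origin from SLC30A1 at 0.35 and -0.89, and SLC39A8 lies highest at 2.90 in LOVO.

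The genes whose levels over the 4 libraries ran most like those of MT2A were sought among the 8141 genes that averaged 5 FPKM or more, by the distance between centred log2(FPKM + 1) values. The closest were JUNB (distance 0.47), NRGN (0.52), PDIA4 (0.67), METTL27 (0.68) and the processed pseudogene MT2P1 (0.72). JUNB, which encodes a subunit of the AP-1 transcription factor, was at 151, 68.4, 26.9 and 106 FPKM in adherent and spheroid HCT116 and then in adherent and spheroid LOVO cells. MT2P1 had 48, 5, 5 and 17 reads and shares stretches of 50 bases with MT2A, so that its reads are uncertain. Among the genes closest to MTF1 were TMEM131 (0.08), TNKS (0.08), DLG3 (0.08) and AP2A1 (0.09). With 4 libraries such likeness is a description.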

How the data were processed

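RNA-seq was performed on 4 libraries, 1 per condition, grouped by the sample titles. The authors deposited FPKM per gene with gene length and coordinates. The labels name an mRNA library kit. The submitters' processing notes list GRCm38 and mm10, whereas all 58735 gene identifiers are human and were found in GENCODE 29 on GRCh38. The aligner and counting tool are not given in the sources used here. FPKM multiplied by gene length came in whole multiples of 1 step per library for 100% of values above 0 (tolerance 0.01 reads), which returned the reads. The library sizes behind the FPKM were 0.907 to 1.09 times the reads on genes. The lowest, in adherent LOVO cells, was below the reads on genes, so these sizes are not plain read totals.

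Fold changes were differences of log2(FPKM + 1), which understates changes of low genes, over 14429 genes averaging 1 FPKM or more. Log2 ratios without a pseudocount carry 95% exact (Clopper-Pearson) counting intervals, and differences between lines a Poisson interval. The floor was 3 reads. The thresholds were 2, after the study's methods but without its edgeR scale and P value limit, and 1. No test was run between conditions. The members, the gene lists and the naming rule were chosen with earlier results of these data known. Named were all members, metallothionein loci above 3 reads, zinc transporters past 1 in either line, the genes at both ends of each other list by mean change and those past 2, and the 5 genes closest to MT2A and to MTF1, of which 1 is not reported here. Settings varied were the threshold (1), the pseudocount (0.1 or 0.01), the filter (none, or an average of 5 FPKM), the genes (protein-coding) and the scale (TPM, centring on the median gene, or trimmed-mean scaling). Arithmetic was tested on simulated reads. Python 3.11.15, numpy 2.4.6, pandas 2.3.3, scipy 1.17.1 and matplotlib 3.10.9 were used. Promoter sequences are from RefSeq, whose table held 4 of the 8 members (MT2A, MT1X, MTF1 and SLC30A1).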

Additional observations from a re-analysis of the deposited data

Results flagged for a closer look

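Opposite directions in the spheroids of the 2 lines, with counting intervals that exclude 0 in each, were found for 3 members. None of these differences was tested because each condition had 1 library. The share of all genes compared that meet the same rule is not given here, so the count has no background beside it. For MT2A the log2(FPKM + 1) fold change was -1.75 in HCT116 and 1.92 in LOVO, a difference of 3.67. For MT1X it was -1.01 and 0.44, a difference of 1.45, from 51 and 90 reads in LOVO. For SLC30A1 it was 0.35 and -0.89, a difference of -1.24, in the direction opposite to the metallothioneins.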

How the results depend on the processing

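The directions of MT2A, MT1X, MT1E, MT1F and SLC30A1 in spheroids against adherent cells were kept in both lines with both other pseudocounts and all 3 other scales. MT2A stayed between -1.78 and -1.71 (HCT116) or 1.94 and 2.14 (LOVO), and MT1E between -2.62 and -2.54 or -1.15 and -0.93. Of 28 log2 fold changes, 2 changed sign under a setting, MTF1 in LOVO (up to 0.03, TPM) and MT1F between the spheroids of the lines (up to 0.14). TPM moved the median of all genes by 0.20 in LOVO spheroids and by 0.17 between the spheroids of the lines. Under TPM, 1 member (MT2A, in LOVO spheroids) was higher past 2 in place of 0, as was 1 in adherent LOVO against HCT116 cells (SLC30A1). At a threshold of 1 the counts became 3 lower in HCT116 spheroids, 2 higher and 1 lower in LOVO spheroids, 1 higher in adherent LOVO against HCT116 cells, and 1 higher and 1 lower between the spheroids. The other alternatives left these counts within 1.5 times. Depth limited MT1F and MT1X in adherent LOVO cells, with 34 and 51 reads. No paired analysis was possible because each condition had 1 library, and leaving out a replicate was likewise not possible.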

Other observations

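Genes induced by metals and oxidants together with the metallothioneins were read in the same libraries. Of 10 such genes, 10 were lower in HCT116 spheroids, with a median log2(FPKM + 1) fold change of -1.42 against -0.03 over all genes. In LOVO spheroids 7 were lower and 3 higher, with a median of -0.54 against -0.06. SLC7A11, the cystine importer subunit, was lower in both lines, at -2.13 and -2.06. So were TXNRD1 (-1.75 and -1.94), NQO1 (-1.46 and -1.66), GCLC, GCLM, SRXN1 and DNAJB1. HSPA1B and HSPA1A, nearly identical genes for the inducible HSP70 whose reads are not separable with certainty, were at -1.35 and -1.39 in HCT116 and at 2.42 and 2.27 in LOVO, the directions of MT2A. HMOX1, the heme-degrading enzyme and the remaining gene of the 3, was at -1.27 in HCT116 and 0.79 in LOVO and is named after its values were seen. The share of all genes lower in the spheroids is not given here, and the list was not tested as a set.

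Of 9 glucocorticoid response genes compared, 9 were lower in HCT116 spheroids, 1 of them past 1 (median -0.29 against -0.03 over all genes). LOVO spheroids had 5 of them higher and 4 lower (median 0.17 against -0.06). The share of all genes lower in the spheroids is not given here, and this list was not tested either. PER1, a clock gene, was at -0.32 and 1.75, and DUSP1, a MAP kinase phosphatase, at -1.59 and -0.19. Of 8 copper handling genes, the medians were 0.11 and -0.24. ATP7B, a copper exporter, was at 0.34 and 0.69, and SLC31A1, the copper importer, at -0.31 and -0.74. Of 6 genes linked to p53 and growth arrest, the medians were -0.09 and -0.47, with CDKN1A, the cell cycle inhibitor p21, at 0.00 and 1.35 and GDF15, a stress cytokine, at -0.12 and -2.47. Of the 5 leukocyte and 3 endothelial markers, 1 averaged 1 FPKM or more, the endothelial PECAM1, with 5 reads in adherent and 992 in spheroid LOVO cells (0.0359 and 6.35 FPKM).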
